A study of Mus musculus with 9 samples.

Results

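The serum amyloid and orosomucoid genes are a group of acute phase genes of the liver, and they were picked from the expression table by gene symbol. The group holds Saa1, Saa2, Saa3 and Saa4, which encode serum amyloid A proteins, Apcs, which encodes serum amyloid P component, and Orm1, Orm2 and Orm3, which encode orosomucoids. These are 8 of the 21470 genes in the table, and 8 of 8 passed the filter on low values (at least 1 FPKM in at least 3 libraries), which left 10142 genes for testing. The study sequenced bulk RNA of mouse liver from 3 groups, with 3 libraries in each and 9 in all. In the BDL+LIG group the bile duct was ligated and the mice were given ligustilide, abbreviated LIG. The design text states a dose of 10 mg/kg for it while the sample titles carry the number 20, so the dose is uncertain. In the BDL group the bile duct was ligated with no LIG named, and in the sham group the labels name a sham procedure only. Bile duct ligation blocks the outflow of bile and is used as a model of cholestatic injury and fibrosis. Strain, age, sex, the time after surgery and any vehicle given to the other groups are not stated here. The labels do not say that each library is a separate mouse, so p-values measure only the spread between these libraries.

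Serum amyloid A proteins are carried in blood on high-density lipoprotein. In the mouse, Saa1 and Saa2 are the forms that hepatocytes secrete in inflammation, Saa3 is also made by macrophages and adipose tissue, and Saa4 is a form made without a stimulus. Serum amyloid P component is a pentraxin that binds amyloid fibrils, and it is a main acute phase reactant of the mouse. Orosomucoids, or alpha-1-acid glycoproteins, are plasma lipocalins that bind lipids and basic drugs. Interleukin-6, interleukin-1 and tumour necrosis factor from immune cells are known to drive their transcription in hepatocytes through STAT3, NF-kB and C/EBP factors.

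Levels are FPKM, fragments scaled by the length of the gene model and by the depth of the library, as deposited by the authors, and group means are given ± SD over 3 libraries. Recovered fragment totals ran from 34815965 to 40780517 per library, and the deepest library was 1.17 times as deep as the shallowest. Of the 12 hepatocyte markers, 0 were at 0 in all libraries, and their summed level ran from 46500 to 53700 FPKM in BDL+LIG, from 39900 to 48000 in BDL and from 55700 to 66600 in sham livers. Differences are of log2(FPKM + 1) from limma, with a Benjamini-Hochberg adjusted p under 0.05 as the threshold for a call. The median difference over all tested genes was 0.16 for BDL against sham, 0.18 for BDL+LIG against BDL and 0.34 for BDL+LIG against sham. With median-of-ratios scaling these medians were -0.06, -0.03 and -0.09. The deposited values gave 2322 genes higher and 686 lower in BDL against sham, 1012 and 182 in BDL+LIG against BDL, and 4430 and 905 in BDL+LIG against sham. With median-of-ratios scaling the splits were 1462 higher and 1466 lower, 275 and 355, and 2149 and 2771 for the same comparisons. Quantile normalization gave 1641 and 1311, 482 and 467, and 2435 and 2169. Removing the trend in gene length gave 1615 and 1546, 240 and 262, and 2231 and 2338. With the deposited values, 2 of the 12 hepatocyte markers were called higher and 2 lower in BDL against sham, with a median difference of -0.04. In BDL+LIG against BDL 0 of the 12 were called, with a median of 0.22. In bulk liver, fewer cells of a type and less RNA per cell cannot be told apart.

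The 4 Saa genes lie side by side on chromosome 7, the Orm genes lie together on chromosome 4, and Apcs is on chromosome 1. The 250 bases before the annotated start are shown for 5 of the genes, taken from RefSeq promoters on build GRCm38.p6, 5′ to 3′ on the strand of the gene. Saa1 and Saa2 are shown because they moved most within their family, Saa4 because it moved least, and Orm2 and Orm3 because they are a closely related pair that was low in sham livers. The windows are chr7:46742981-46743230 for Saa1 (minus strand), chr7:46751583-46751832 for Saa2 (plus strand), chr7:46732604-46732853 for Saa4 (minus strand), chr4:63362199-63362448 for Orm2 (plus strand) and chr4:63355908-63356157 for Orm3 (plus strand). Capitals mark matches to the motifs searched.
Saa1: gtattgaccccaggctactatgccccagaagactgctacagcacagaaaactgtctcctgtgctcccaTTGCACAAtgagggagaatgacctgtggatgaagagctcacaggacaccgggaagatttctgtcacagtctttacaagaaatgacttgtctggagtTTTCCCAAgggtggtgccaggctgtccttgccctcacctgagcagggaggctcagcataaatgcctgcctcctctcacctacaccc
Saa2: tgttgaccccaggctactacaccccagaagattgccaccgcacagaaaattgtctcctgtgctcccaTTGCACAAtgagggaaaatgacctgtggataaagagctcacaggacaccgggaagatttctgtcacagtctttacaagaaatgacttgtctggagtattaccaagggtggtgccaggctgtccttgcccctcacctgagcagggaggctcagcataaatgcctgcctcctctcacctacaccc
Saa4: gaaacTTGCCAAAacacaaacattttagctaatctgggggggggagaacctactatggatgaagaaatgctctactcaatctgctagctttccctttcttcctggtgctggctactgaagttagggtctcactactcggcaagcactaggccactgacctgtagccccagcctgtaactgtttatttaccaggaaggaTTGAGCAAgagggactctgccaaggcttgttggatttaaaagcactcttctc
Orm2: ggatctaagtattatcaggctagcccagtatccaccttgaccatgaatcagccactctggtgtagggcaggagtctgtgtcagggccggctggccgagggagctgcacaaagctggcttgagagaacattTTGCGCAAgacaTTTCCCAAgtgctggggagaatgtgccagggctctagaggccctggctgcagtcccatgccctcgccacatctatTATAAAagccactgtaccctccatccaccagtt
Orm3: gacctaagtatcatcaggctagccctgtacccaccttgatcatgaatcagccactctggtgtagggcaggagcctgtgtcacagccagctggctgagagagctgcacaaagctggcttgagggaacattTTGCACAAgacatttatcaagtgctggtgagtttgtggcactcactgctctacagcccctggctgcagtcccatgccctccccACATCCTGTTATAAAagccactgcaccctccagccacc
The motifs searched on both strands were TTNNGNAA for C/EBP, GGG and TTTCC with any 2 bases between them for NF-kB, TTCNNNGAA for STAT, ACANNNTGT for the glucocorticoid receptor and TATAAA for the TATA box. The C/EBP letters were found in 36.8% of the 32851 promoter windows in the table, the NF-kB letters in 1.4%, the STAT letters in 7.0%, the glucocorticoid receptor letters in 5.8% and the TATA box letters in 12.4%.

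The Saa1 window held TTGCACAA, 182 to 175 bases before the start, and TTTCCCAA, 86 to 79 bases before it. The Saa2 window held TTGCACAA at 183 to 176 bases before the start, and it held no second match. Saa1 and Saa2 windows were identical at 238 of 251 aligned positions (94.8%). Orm2 held TTGCGCAA and TTTCCCAA, at 120 to 113 and 108 to 101 bases before the start, with TATAAA at 33 to 28. Orm3 held TTGCACAA at 121 to 114 bases before the start, the glucocorticoid receptor letters ACATCCTGT at 38 to 30 and TATAAA at 29 to 24. Orm2 and Orm3 windows were identical at 219 of 255 positions (85.9%). Saa4 held TTGCCAAA and TTGAGCAA, both C/EBP matches, at 245 to 238 and 52 to 45 bases before the start. Of the windows not printed, Saa3 (chr7:46715677-46715926) held 4 C/EBP matches, and Apcs (chr1:172895055-172895304) held the STAT letters TTCTAGGAA at 244 to 236 bases before the start and no C/EBP match. The NF-kB letters were in 0 of the 7 windows. A match is a description of the letters and not a measured binding site.

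Ligation was followed by a rise of the whole group. In BDL against sham livers 8 of 8 genes were called higher in limma, against 22.9% of all tested genes called higher. The increases ran from 1.69-fold for Saa4 to 28.9-fold for Orm2, as ratios of group mean FPKM. Single sham libraries moved the size of some rises by over 1.5 times. Without sham library 1 the log2 rise was 3.22 for Saa1, 1.58 for Saa3, 4.49 for Orm2 and 3.09 for Orm3, against 3.83, 2.25, 5.19 and 3.83 with all libraries, and without sham library 2 it was 5.81 for Orm2. For 7 of the 8 genes each BDL library stood above each sham library, a separation seen in 33.7% of tested genes, and for Saa4 the groups overlapped. Orm2, Saa2, Orm3 and Saa1 ranked 3, 4, 16 and 17 among the 10142 tested genes by the size of the log2 difference.

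With LIG, the levels in ligated livers were lower for the whole group. In BDL+LIG against BDL livers each library of BDL+LIG lay below each library of BDL for 8 of 8 genes, which was so for 10.5% of all tested genes. Limma called 4 of the 8 lower, namely Saa2, Saa4, Apcs and Orm1, against 1.79% of all tested genes called lower. Group means in BDL+LIG livers were between 24.0% of the BDL mean for Saa2 and 41.6% for Orm3. Saa2, Saa1, Saa3, Apcs, Orm3, Orm1, Orm2 and Saa4 were ranks 4, 7, 9, 14, 15, 16, 17 and 23 from the lowest log2 difference of all tested genes.

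The number of calls for LIG rested on single libraries. It was 1, 0 and 0 of 8 without BDL library 1, 2 or 3, 2 without BDL+LIG library 2, and 8 without sham library 1, which enters through the shared estimate of the spread. Without BDL library 2 or 3, limma gave an unadjusted p under 0.05 for 7 of the 8 genes in each fit. In the whole table the calls were 40, 0 and 54 without BDL library 1, 2 or 3, and 1194 with all libraries. They were 289 without BDL+LIG library 2 and 3144 without sham library 1. Differences were negative for 8 of 8 genes in each of the 24 alternative fits.

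Markers of some other cell types also differed between the ligated groups. Among all 10142 tested genes, 1012 were called higher and 182 lower in BDL+LIG against BDL, and 22.9% were called higher in BDL against sham. Of 8 tested endothelial markers, 7 were called higher in BDL+LIG than in BDL livers and 0 lower, and the 10 endothelial markers summed to 58.5 to 86.9 FPKM in BDL+LIG, 34.3 to 36.8 in BDL and 29.2 to 33.7 in sham livers. Of 10 stellate cell markers, 3 were called higher and 0 lower, with sums of 113 to 213 FPKM in BDL+LIG, 75.7 to 95.6 in BDL and 15.2 to 43.5 in sham livers. The sums of both lists did not overlap between BDL+LIG and BDL. Without BDL library 1, 2 or 3, limma called 0 endothelial and 0 stellate markers, with 7 of 8 and 4 to 5 of 10 at an unadjusted p under 0.05. With median-of-ratios scaling 4 endothelial markers were called, without BDL+LIG library 2 there were 3 (with 1 stellate marker), and with the length trend removed 0 stellate markers were called (4 at an unadjusted p under 0.05). Bile duct markers rose in BDL against sham (7 of 7 tested) and were not called with LIG (0 of 7), and the 10 summed to 218 to 462 FPKM in BDL+LIG, 408 to 607 in BDL and 20.5 to 36.8 in sham livers. In none of these lists was a marker at 0 in all libraries. Markers under 1 FPKM in each sham library passed the filter only through ligated livers, which favours rises among the tested markers. The part of these cell types in the levels of the 8 genes was not tested.

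**Figure D1:**
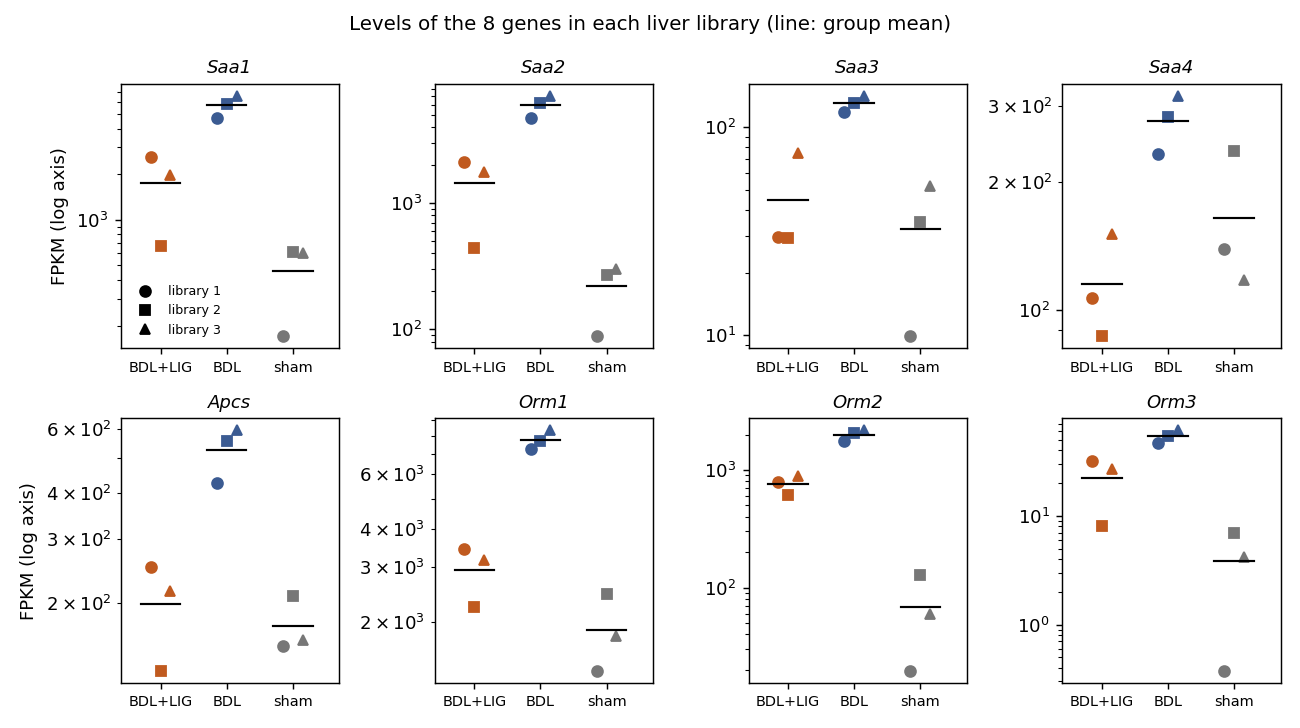
Levels in FPKM on a log axis for the 8 genes, with BDL+LIG, BDL and sham from left to right. Points are libraries (circle, square and triangle for libraries 1, 2 and 3) and lines are group means. The BDL mean is the highest in each panel, each BDL library lies above each BDL+LIG library, and BDL+LIG library 2 is the lowest of its group in each.

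Saa1, a main circulating serum amyloid A, had 2589, 671 and 1970 FPKM in BDL+LIG, 4729, 5781 and 6590 in BDL, and 171, 609 and 603 in sham libraries 1, 2 and 3. The 3 groups did not overlap, although BDL+LIG library 2 was close to the highest sham library. Saa1 was 12.4-fold higher in BDL than in sham livers by group means (3.83 ± 0.55 on the log2 scale, SE, adjusted p = 0.000626 in limma). In BDL+LIG it stood at 30.6% of the BDL mean, a difference of -1.90 ± 0.55 with an adjusted p of 0.05004, just over the threshold. It was past the threshold in 8 of the 24 alternative fits, where its adjusted p ran from 0.00456 to 0.142.

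Saa2, the other form induced in hepatocytes, had 2110, 444 and 1768 FPKM in BDL+LIG, 4716, 6187 and 7101 in BDL, and 88.4, 271 and 303 in sham libraries. No library of a group fell into the range of another group. The group means were 1441 ± 880 FPKM in BDL+LIG, 6001 ± 1203 in BDL and 221 ± 116 in sham livers (SD, n = 3 each). Saa2 rose by 4.93 ± 0.59 on the log2 scale in BDL against sham livers (adjusted p = 0.000183 in limma), and it fell by 2.32 ± 0.59 in BDL+LIG against BDL livers (adjusted p = 0.0337). Its difference from BDL was the largest fall among the 8 genes, and the call was lost in 7 of the 24 alternative fits. Without BDL+LIG library 2 the difference was -1.61 (adjusted p = 0.0843).

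In BDL+LIG against sham livers limma called 5 of the 8 genes higher, namely Saa1, Saa2, Orm1, Orm2 and Orm3, against 43.7% of all tested genes called higher. Each BDL+LIG library stood above each sham library for 4 of the 8, and for 45.7% of all tested genes. Saa1 was 3.78-fold above sham (1.92 ± 0.55, adjusted p = 0.0141 in limma) and Saa2 was 6.53-fold above it (2.61 ± 0.59, adjusted p = 0.00409). The Saa1 call was lost in 4 of the 24 alternative fits, among them median-of-ratios scaling (1.36, adjusted p = 0.102). The log2 difference from sham in BDL+LIG livers was 1.31 for Saa1 without sham library 1 and 3.31 for Saa2 without BDL+LIG library 2.

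The balance of both forms differed between the groups. The ratio of Saa2 to Saa1 in FPKM was 0.815, 0.662 and 0.898 in BDL+LIG, 0.997, 1.07 and 1.08 in BDL, and 0.517, 0.444 and 0.502 in sham libraries. The groups did not overlap, and the means were 0.791 ± 0.120 in BDL+LIG, 1.05 ± 0.04 in BDL and 0.488 ± 0.039 in sham livers (SD, n = 3 each). An exact permutation test of 3 against 3 libraries cannot give a two-sided p below 0.1, and none is given. The 2 reference transcripts were 93.9% identical, and 14.8% of the 50-base stretches of the Saa1 transcript also occur in another of the 8 genes (13.3% for Saa2). The sources used here do not give how the authors divided such reads, so the split between Saa1 and Saa2 is uncertain. The FPKM and fragments imply gene models of 1029 bases for Saa1 and 825 for Saa2, while the reference transcripts have 609 and 606. In recovered fragments Saa2 was below Saa1 in each BDL library (158723 against 198510, 207686 against 242052 and 204063 against 236217). Whether the ratio reaches 1 therefore depends on the model used.

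**Figure D2:**
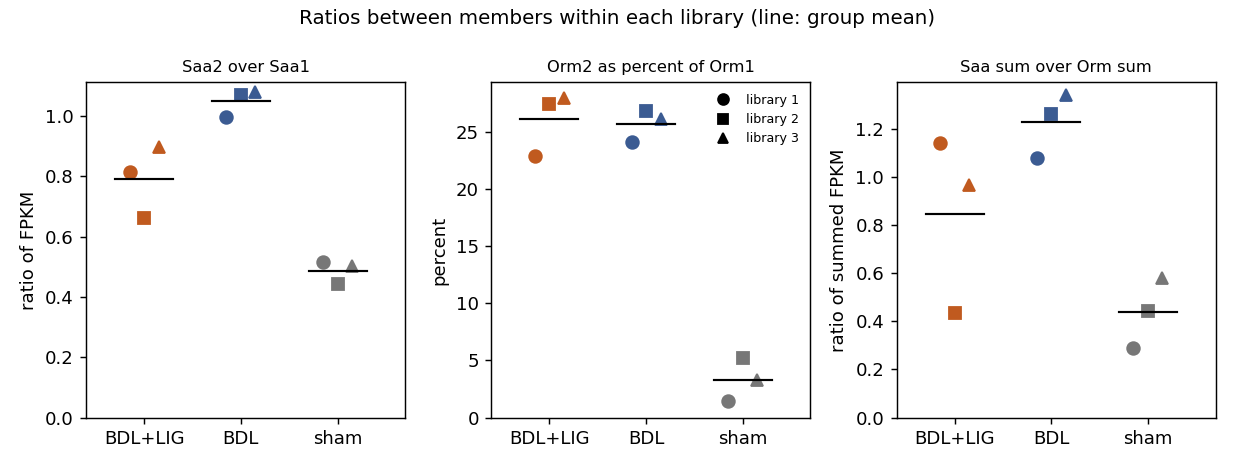
Ratios within each library for BDL+LIG, BDL and sham from left to right, with points for libraries and lines for group means. Left, the Saa2 to Saa1 ratio has its highest mean in BDL (1.05). Middle, Orm2 is 26.1% of Orm1 in BDL+LIG, 25.7% in BDL and 3.31% in sham livers. Right, the summed Saa over the summed Orm FPKM is 0.433 to 1.14 in BDL+LIG, 1.08 to 1.34 in BDL and 0.290 to 0.578 in sham libraries.

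Saa3, the member of the family that macrophages also transcribe, was far less abundant. It had 29.8, 29.2 and 75.3 FPKM in BDL+LIG, 118, 131 and 142 in BDL, and 9.90, 35.0 and 52.0 in sham libraries. The BDL libraries stood above both other groups, and BDL+LIG and sham overlapped. Saa3 rose 4.03-fold in BDL against sham livers (2.25 ± 0.52 on the log2 scale, adjusted p = 0.00872 in limma). In BDL+LIG against BDL its difference was -1.66 ± 0.52 (adjusted p = 0.0619). It was past the threshold in 7 of the 24 alternative fits, where its adjusted p ran from 0.00393 to 0.177, among them the replicate block (0.0386) and voom (0.0362). Against sham it was 0.59 ± 0.52 (adjusted p = 0.361), which turned to -0.08 without sham library 1. As a share of Saa1 plus Saa2, Saa3 was 0.634%, 2.62% and 2.02% in BDL+LIG, 1.25%, 1.10% and 1.04% in BDL, and 3.82%, 3.98% and 5.74% in sham libraries.

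The macrophage markers moved with Saa3 after ligation. Of 14 markers, 13 rose in BDL against sham and 0 fell, and their summed level ran from 626 to 1360 FPKM in BDL+LIG, from 510 to 747 in BDL and from 112 to 188 in sham livers. Between BDL+LIG and BDL, where Saa3 was lower in BDL+LIG, 1 of 14 markers rose (Adgre1, 14.9 ± 5.7 FPKM in BDL+LIG, 4.86 ± 1.32 in BDL livers, adjusted p = 0.0169 in limma) and 0 fell. With TPM rescaling, or totals matched after dropping the most abundant genes, 5 of 14 were called higher. Without BDL library 1, 2 or 3, or BDL+LIG library 2 or 3, limma called 0 of 14, with 3 to 5 at an unadjusted p under 0.05. None of the 14 was at 0 in all libraries. The neutrophil markers summed to 16.9 to 42.0 FPKM in BDL+LIG, 43.7 to 48.3 in BDL and 4.25 to 6.80 in sham livers. Of the 4 of 10 neutrophil markers that were tested, 4 rose in BDL against sham. A marker under 1 FPKM in each sham library was tested only if ligated livers reached it, so the filter favours such rises. Of the 4 tested, 1 (S100a9) was called lower in BDL+LIG against BDL, a call that held with 4 of 9 libraries left out in turn. Adipose markers summed to 26.1 to 201 FPKM in BDL+LIG, 46.1 to 52.3 in BDL and 1200 to 1690 in sham livers, where Car3, a carbonic anhydrase gene that hepatocytes also express, averaged 1465 ± 249 FPKM. The part of these cell types in the Saa3 levels was not tested.

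Saa4, the form made without a stimulus, showed another pattern. It had 107, 87.0 and 151 FPKM in BDL+LIG, 232, 283 and 318 in BDL, and 139, 236 and 117 in sham libraries. Sham library 2 lay just above the lowest BDL library, and BDL+LIG and sham overlapped. Saa4 was called higher in BDL against sham livers (0.81 ± 0.27 on the log2 scale, adjusted p = 0.0442 in limma), and this call was lost in 12 of the 24 alternative fits, with an adjusted p of up to 0.234. In BDL+LIG it fell by 1.29 ± 0.27 against BDL (adjusted p = 0.02003). Its BDL+LIG mean was 115 ± 33 FPKM, against a sham mean of 164 ± 63 (SD, n = 3 each), and it is the only member with a mean below sham in BDL+LIG livers (-0.48 ± 0.27, adjusted p = 0.152). With median-of-ratios scaling that difference was -1.04 and was called (adjusted p = 0.0186).

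Apcs, which encodes the pentraxin serum amyloid P component, had 251, 131 and 216 FPKM in BDL+LIG, 427, 554 and 593 in BDL, and 152, 209 and 159 in sham libraries. The BDL libraries stood apart from both other groups, and BDL+LIG and sham overlapped. Apcs rose by 1.59 ± 0.24 on the log2 scale in BDL against sham livers (adjusted p = 0.000809 in limma) and fell by 1.43 ± 0.24 in BDL+LIG against BDL (adjusted p = 0.0128). The fall with LIG was called in 22 of the 24 alternative fits. Against sham, the BDL+LIG difference was 0.16 ± 0.24 (adjusted p = 0.594), and it was -0.40 with median-of-ratios scaling and -0.03 without BDL+LIG library 1. Crp, the other short pentraxin and a close neighbour of Apcs on chromosome 1, averaged 231 ± 37 FPKM in BDL+LIG, 248 ± 7 in BDL and 152 ± 29 in sham livers. It rose in BDL against sham (0.72 ± 0.16, adjusted p = 0.00842), and its difference in BDL+LIG against BDL was -0.11 ± 0.16 (adjusted p = 0.664), with overlapping groups.

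Orm1, the most abundant orosomucoid transcript, had 3429, 2225 and 3177 FPKM in BDL+LIG, 7246, 7711 and 8317 in BDL, and 1387, 2461 and 1797 in sham libraries. It was number 20 in the table by mean level in BDL+LIG, number 11 in BDL and number 44 in sham livers. The BDL libraries were separate from both other groups, and BDL+LIG library 2 lay below sham library 2. Orm1 rose by 2.08 ± 0.24 on the log2 scale in BDL against sham livers (adjusted p = 0.000166 in limma) and fell by 1.42 ± 0.24 in BDL+LIG against BDL (adjusted p = 0.0131). In BDL+LIG it was 1.57-fold above sham (0.66 ± 0.24, adjusted p = 0.0428). That call was lost in 12 of the 24 alternative fits, including median-of-ratios scaling (0.10, adjusted p = 0.817).

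Orm2 was the gene of the group with the lowest level in sham relative to BDL livers. It had 787, 610 and 891 FPKM in BDL+LIG, 1749, 2064 and 2167 in BDL, and 19.6, 128 and 59.8 in sham libraries, and the 3 groups did not overlap. The rise in BDL against sham was 5.19 ± 0.50 on the log2 scale (adjusted p = 4.57e-05 in limma), or 28.9-fold by group means. In BDL+LIG against BDL livers the difference was -1.40 ± 0.50, which did not pass the threshold (adjusted p = 0.0885). The spread is shared with sham livers, where the coefficient of variation was 79.0%, against 18.6% in BDL+LIG and 10.9% in BDL. The difference passed in 4 of the 24 alternative fits, over which its adjusted p ran from 0.00278 to 0.222. Those were only the 2 groups compared, weights per group, and sham library 1 or 2 left out. Orm2 was 11.1-fold above sham in BDL+LIG livers (3.79 ± 0.50, adjusted p = 0.000190), with a log2 difference of 3.09 without sham library 1 and 4.41 without sham library 2.

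Orm3 had 32.1, 8.08 and 26.9 FPKM in BDL+LIG, 46.7, 53.9 and 60.9 in BDL, and 0.376, 7.01 and 4.14 in sham libraries. The lowest of these, in sham library 1, rests on 34 recovered fragments. The groups did not overlap, with BDL+LIG library 2 just above sham library 2. Orm3 rose by 3.83 ± 0.61 on the log2 scale in BDL against sham livers (adjusted p = 0.00118 in limma). The difference between BDL+LIG and BDL was -1.42 ± 0.61 (adjusted p = 0.140). It was past the threshold in 3 of the 24 alternative fits, over which its adjusted p ran from 0.0183 to 0.396. The difference between BDL+LIG and sham was 2.40 ± 0.61 (adjusted p = 0.00771). Without sham library 1 the difference from sham in BDL+LIG was 1.66. The FPKM and fragments of Orm3 imply a gene model of 2492 bases, while its reference transcript has 773, so its level relative to the other genes depends on the model used.

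Relative to Orm1, Orm2 was more abundant in the ligated groups than in sham livers. Orm2 was 22.9%, 27.4% and 28.0% of Orm1 in BDL+LIG, 24.1%, 26.8% and 26.1% in BDL, and 1.42%, 5.18% and 3.32% in sham libraries, as a ratio of FPKM. The BDL+LIG and BDL libraries overlapped, and both lay above the sham libraries. The implied gene models have 779 bases for Orm1 and 1053 for Orm2, against 775 in each reference transcript. The size of the ratio therefore depends on the model used. The Orm1 and Orm2 transcripts were 91.0% identical, and 20.4% and 21.8% of their 50-base stretches occur in another of the 8 genes, so the split between them is uncertain in the same way as that of Saa1 and Saa2. The summed Saa level was 1.14, 0.433 and 0.968 times the summed Orm level in BDL+LIG, 1.08, 1.26 and 1.34 times in BDL, and 0.290, 0.443 and 0.578 times in sham libraries.

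**Figure D3:**
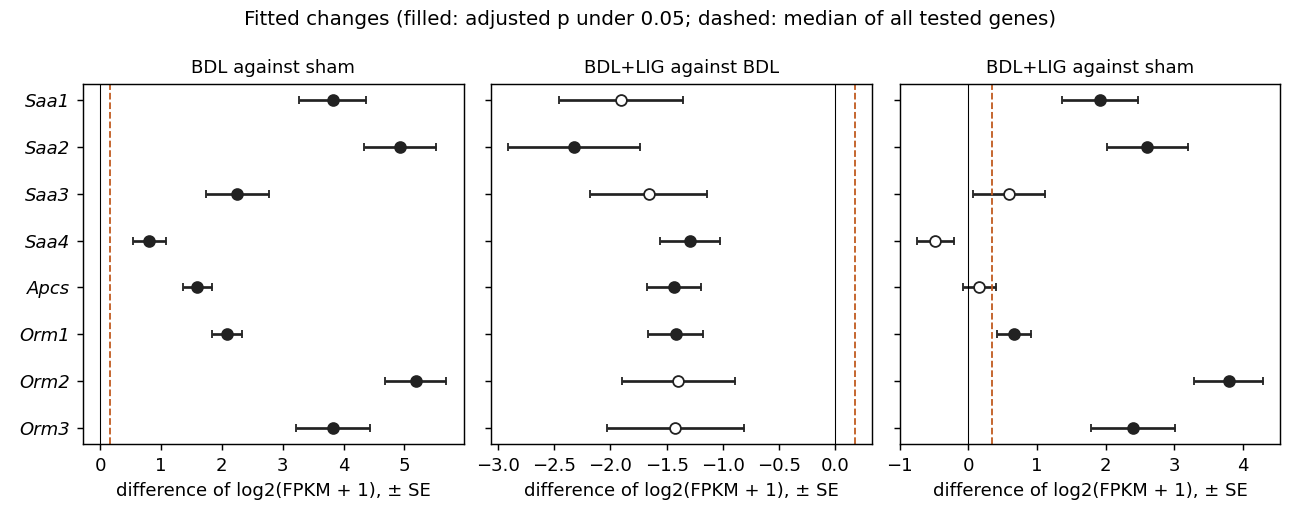
Fitted differences of log2(FPKM + 1) with SE for the 8 genes in BDL against sham, BDL+LIG against BDL and BDL+LIG against sham. Filled points are called at an adjusted p under 0.05, and the dashed line is the median of all tested genes. The points are above 0 for 8 of 8 genes on the left and below 0 for 8 of 8 in the middle.

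Libraries of a group kept much the same order in the 8 genes. BDL+LIG library 2 was the lowest of its group for 8 of 8 genes, as it was for 19.5% of all tested genes. BDL library 1 was the lowest for 8 of 8 genes (57.0% of tested genes) and BDL library 3 the highest for 8 of 8 (50.2%). Sham library 1 was the lowest for 7 of 8 genes (24.8% of tested genes), with Saa4 lowest in sham library 3. The 8 genes together made up 1.91%, 0.844% and 1.64% of summed FPKM in BDL+LIG, 3.45%, 4.12% and 4.61% in BDL, and 0.365%, 0.665% and 0.489% in sham libraries. The coefficient of variation was smallest in BDL livers for 8 of 8 genes. The share of all tested genes with that order was not counted, so it is not shown to be particular to these genes. For Saa1 the coefficient of variation was 56.1% in BDL+LIG, 16.4% in BDL and 54.5% in sham livers. For Orm1 it was 21.6% in BDL+LIG, 6.90% in BDL and 28.8% in sham livers.

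The genes with the most similar course over the 9 libraries differed between members. Likeness was taken as the root mean square difference of log2(FPKM + 1), each gene centred on its own mean. Saa1, Saa2 and Orm3 shared their 3 nearest genes outside the group, the metallothionein genes Mt2 and Mt1 and the acyltransferase gene Acnat2, at 0.651, 0.665 and 0.740 from Saa1. Saa1 and Orm3 were nearest to each other, at 0.295. Apcs and Saa4 both had Fgl1, which encodes the secreted fibrinogen-like protein of hepatocytes, as their nearest gene, at 0.227 and 0.266. Orm1 was nearest to Hp, the gene of haptoglobin, at 0.255, followed by the betaine-homocysteine methyltransferase gene Bhmt (0.263) and Lrg1 (0.286), which encodes a leucine-rich plasma glycoprotein. Saa3 was nearest to Prtn3, Cd52 and S100a10, at 0.537 to 0.631, and Orm2 to S100a11, Cd14 and Ubd, at 0.748 to 0.808. Prtn3, a protease gene of neutrophil granules, had 20.4, 17.9 and 20.2 FPKM in BDL+LIG, 46.5, 50.7 and 48.0 in BDL, and 4.96, 24.4 and 11.9 in sham libraries. These likenesses are descriptions of 9 libraries and share the group differences.

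Most other positive acute phase genes rose with ligation. Of 26 tested, 21 rose in BDL against sham livers, 2 fell and 3 were not called, with a median difference of 1.27. Cd14, a coreceptor for bacterial lipopolysaccharide, averaged 72.8 ± 5.3 FPKM in BDL and 1.68 ± 0.69 in sham livers (adjusted p = 2.94e-06 in limma). Lcn2, an iron-siderophore-binding lipocalin, averaged 7243 ± 957 FPKM in BDL and 57.3 ± 41.7 in sham livers (adjusted p = 6.63e-06). Steap4, a metalloreductase gene, averaged 271 ± 31 FPKM in BDL and 30.4 ± 10.1 in sham livers, and Cp, the gene of ceruloplasmin, 679 ± 53 FPKM in BDL and 158 ± 20 in sham livers (adjusted p = 6.64e-06 and 1.10e-05). The 2 that fell were the hepcidin paralog Hamp2 and the mannose-binding lectin gene Mbl2, named after their values were seen. The Hamp2 call held in 1 of the 9 fits with a library left out and in 2 of 5 other scalings, and the Mbl2 call in 9 of 9 and 5 of 5. With LIG, 0 of the 26 rose against BDL, 1 fell and 25 were not called, with a median of -0.31. The gene that fell was Fgl1, at 553 ± 116 FPKM in BDL+LIG and 1274 ± 96 in BDL livers (-1.22 ± 0.21, adjusted p = 0.0130). The differences of the uncalled genes ran from -1.44 for Lcn2 to 1.59 for Hamp2. Mt2 was at -1.07, Mt1 at -1.02, Hp at -0.89 and Serpina3m at 0.55. For Hp, Mt1 and Mt2 each BDL+LIG library lay below each BDL library, while for Cd14 the groups overlapped. Without BDL library 1, 2 or 3, limma called 0 of the 26, with 4 to 5 at an unadjusted p under 0.05. The difference between the 8 genes and these 26 was not tested.

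The genes listed as negative in the acute phase moved in both directions. Of 15 tested, 2 rose, 5 fell and 8 were not called in BDL against sham livers. Ttr, the gene of the thyroid hormone carrier transthyretin, averaged 1550 ± 188 FPKM in BDL and 5971 ± 1265 in sham livers (adjusted p = 9.13e-05 in limma). Serpina6, the gene of corticosteroid-binding globulin, fell by 2.74 ± 0.33 and Paqr9 by 1.02 ± 0.16 on the log2 scale, while Trf, the gene of the iron carrier transferrin, rose by 1.29 ± 0.22. With LIG, 1 of 15 fell against BDL (Fetub, which encodes a fetuin, -0.71 ± 0.17, adjusted p = 0.0304) and 0 rose. Limma called 0 of 15 without BDL library 1, 2 or 3, without BDL+LIG library 2 or 3 and with median-of-ratios scaling, with 1 to 3 at an unadjusted p under 0.05.

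Of the cytokines that induce these genes, few were abundant enough in whole liver to be tested. Il6 was listed at 0, 0.0222 and 0.0884 FPKM in BDL+LIG, 0, 0.172 and 0.252 in BDL, and 0 in each of the 3 sham libraries. These rest on at most 10 recovered fragments per library, so no difference in Il6 could be read at this depth. Il1b had 1.22, 1.46 and 2.60 FPKM in BDL+LIG, 2.39, 1.68 and 2.01 in BDL, and 0.379, 0.374 and 0.622 in sham libraries. Il1b rose in BDL against sham (1.05 ± 0.19, adjusted p = 0.00219 in limma), as did Il1a (0.70 ± 0.15, adjusted p = 0.00716). Il1b was under 1 FPKM in each sham library, so it passed the filter only through the ligated livers. Ctf1 and Il18 were not called, at 0.41 ± 0.18 and -0.14 ± 0.14. None of the 4 tested cytokines was called in BDL+LIG against BDL, and the levels of Tnf (0.408, 1.23 and 0.778 FPKM in BDL+LIG, 1.22, 0.833 and 0.816 in BDL) and Osm (0.0131, 0.0665 and 0.198 in BDL+LIG, 0.0900, 0.168 and 0.0602 in BDL) overlapped.

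The receptors and signalling genes of these cytokines were partly higher in ligated livers. Of 20 tested, 9 rose and 2 fell in BDL against sham. Osmr, the oncostatin M receptor, averaged 2.40 ± 0.59 FPKM in BDL and 0.270 ± 0.204 in sham livers (adjusted p = 0.000153 in limma), and Il1r1, the interleukin-1 receptor, 18.3 ± 3.1 FPKM in BDL and 6.11 ± 1.49 in sham livers (adjusted p = 0.000203). Osmr was under 1 FPKM in each sham library, so it passed the filter only through the ligated livers, which favours a rise. Tnfrsf1a, a receptor of tumour necrosis factor, rose by 0.88 ± 0.10 on the log2 scale. Lifr, the receptor of leukemia inhibitory factor, fell to 3.89 ± 0.20 FPKM in BDL, against 23.6 ± 7.5 in sham livers (adjusted p = 4.19e-05). With LIG, 5 of 20 were called higher than in BDL and 2 lower. The 2 called lower were Il1r1 (-0.649) and Ly96 (-0.725), named after their values were seen. Their calls held in 3 and 2 of the 9 fits with a library left out. Il6st, the signal-transducing receptor chain of interleukin-6, averaged 22.9 ± 3.3 FPKM in BDL+LIG and 9.90 ± 0.50 in BDL livers (1.12 ± 0.21, adjusted p = 0.0145), while the 8 genes were lower. Ptpn11, a phosphatase of the same pathway, rose by 0.65 ± 0.14 (adjusted p = 0.0219). With median-of-ratios scaling and with the length trend removed, 1 of the 20 was called higher and 2 lower. Rescaled to TPM it was 6 higher and 0 lower, without sham library 1 it was 8 and 2, without BDL+LIG library 1 it was 3 and 0, and without BDL+LIG library 3 it was 1 and 0. Without BDL library 1, 2 or 3, or without BDL+LIG library 2, limma called 0 of the 20, with 8 to 10 of them at an unadjusted p under 0.05.

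Transcription factors known to act on these promoters were higher in part after ligation, with 11 of 22 up, 2 down and 9 not called in BDL against sham. Nfkb2 and Relb, the subunits of the noncanonical NF-kB dimer, rose by 1.16 ± 0.12 and 0.99 ± 0.13 on the log2 scale. Nfkbia, which encodes an NF-kB inhibitor that is itself a target, averaged 33.8 ± 2.4 FPKM in BDL and 15.8 ± 1.6 in sham livers (adjusted p = 0.000106 in limma), and Egr1, an early response factor, 17.6 ± 1.5 FPKM in BDL and 4.64 ± 1.78 in sham livers (adjusted p = 0.000248). With LIG, 4 of 22 rose against BDL and 0 fell, among them Fosl2 (0.57 ± 0.13, adjusted p = 0.0283) and Rel (0.44 ± 0.11, adjusted p = 0.0337). Rescaled to TPM or to the common total, 8 of 22 were called higher, and without sham library 1 limma called 10 higher and 1 lower. With median-of-ratios scaling, quantile normalization or the length trend removed, 0 of the 22 were called in BDL+LIG against BDL. The count was also 0 with any single BDL+LIG or BDL library left out, where 8 to 10 of the 22 had an unadjusted p under 0.05 in limma. With median-of-ratios scaling, quantile normalization and the length trend removed, 4, 7 and 3 of the 22 did.

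Receptors and partners of the proteins themselves rose in part with ligation. Of 15 genes of serum amyloid A receptors and partners tested, 6 rose and 1 fell in BDL against sham. Over the whole table, 22.9% of tested genes were called higher in BDL against sham, and 1012 of 10142 in BDL+LIG against BDL. Counts of this and the other lists were not tested against those shares. Cd36, a scavenger receptor, averaged 18.1 ± 3.1 FPKM in BDL and 1.55 ± 0.69 in sham livers (adjusted p = 5.12e-06 in limma). Tlr2, a pattern recognition receptor, rose by 1.75 ± 0.19, Scarb1, the receptor of high-density lipoprotein, by 0.92 ± 0.11, and Pltp, a phospholipid transfer protein gene, by 1.60 ± 0.22 on the log2 scale. With LIG, 2 of 15 rose and 1 fell against BDL. Scarb2, a lysosomal relative of Scarb1, averaged 40.6 ± 2.7 FPKM in BDL+LIG and 23.8 ± 1.2 in BDL livers (adjusted p = 0.0164), and Pon1, an esterase gene of high-density lipoprotein, 163 ± 17 FPKM in BDL+LIG and 252 ± 2 in BDL livers (adjusted p = 0.0162). Limma called 0 of 15 without BDL library 1, 2 or 3, with 4 to 5 at an unadjusted p under 0.05, and without BDL+LIG library 2 it called 0 higher and 1 lower.

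Among 11 pentraxin, Fc receptor and complement genes, 10 rose and 0 fell in BDL against sham, and 1 rose with LIG against BDL. Fcgr3, an activating Fc receptor, averaged 12.5 ± 1.4 FPKM in BDL and 2.37 ± 0.62 in sham livers (adjusted p = 0.00101 in limma), and C1qb, a chain of complement C1q, 148 ± 18 FPKM in BDL and 48.3 ± 19.8 in sham livers (adjusted p = 0.00325). Fcgr2b, the inhibitory Fc receptor, rose by 0.76 ± 0.13 on the log2 scale. Fcgr2b was the gene that rose again with LIG (0.51 ± 0.13 against BDL, adjusted p = 0.0366). That call was lost, leaving 0 of 11 in limma, without any single BDL+LIG or BDL library and under quantile normalization or median-of-ratios scaling, with 1 of 11 at an unadjusted p under 0.05 in each. Several of these are transcribed by macrophages, whose markers rose in 13 of 14 cases in BDL against sham, and their part in these counts was not tested. With median-of-ratios scaling 4 of the 11 rose in BDL against sham, and without BDL library 3 it was 6.

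The lipocalins other than orosomucoids moved in both directions. Of 6 tested, 3 rose and 1 fell in BDL against sham, and 1 rose and 1 fell in BDL+LIG against BDL. Ptgds, a prostaglandin synthase, averaged 18.1 ± 2.3 FPKM in BDL and 0.442 ± 0.280 in sham livers (adjusted p = 2.75e-06 in limma), and it fell to 4.96 ± 1.58 FPKM in BDL+LIG (-1.71 ± 0.22 against BDL, adjusted p = 0.00697). Ptgds was under 1 FPKM in each sham library, so it passed the filter only through the ligated livers, which favours a rise with ligation. Ambp, the gene of alpha-1-microglobulin and bikunin, rose by 0.61 ± 0.16 with ligation, and C8g, a complement chain, fell by 1.08 ± 0.26. Apom, the lipocalin of high-density lipoprotein, averaged 256 ± 48 FPKM in BDL+LIG and 84.4 ± 4.3 in BDL livers (1.57 ± 0.20, adjusted p = 0.00697). Without BDL library 2, limma called 0 of the 6 with LIG, and 4 had an unadjusted p under 0.05.

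Of 17 genes of high-density lipoprotein, the carrier of serum amyloid A in plasma, 5 rose and 1 fell in BDL against sham. The median difference was -0.05, and 22.9% of all tested genes were called higher in this comparison. Clu, the gene of clusterin, averaged 3017 ± 17 FPKM in BDL and 767 ± 75 in sham livers (adjusted p = 1.12e-05 in limma), and Abcg1, a cholesterol exporter gene, rose by 1.10 ± 0.20 on the log2 scale. With LIG, 1 rose against BDL (Apom) and 1 fell (Pon1), with a median of -0.02. The Pon1 call was lost without BDL library 1, 2 or 3, and the Apom call without BDL library 2.

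**Figure D4:**
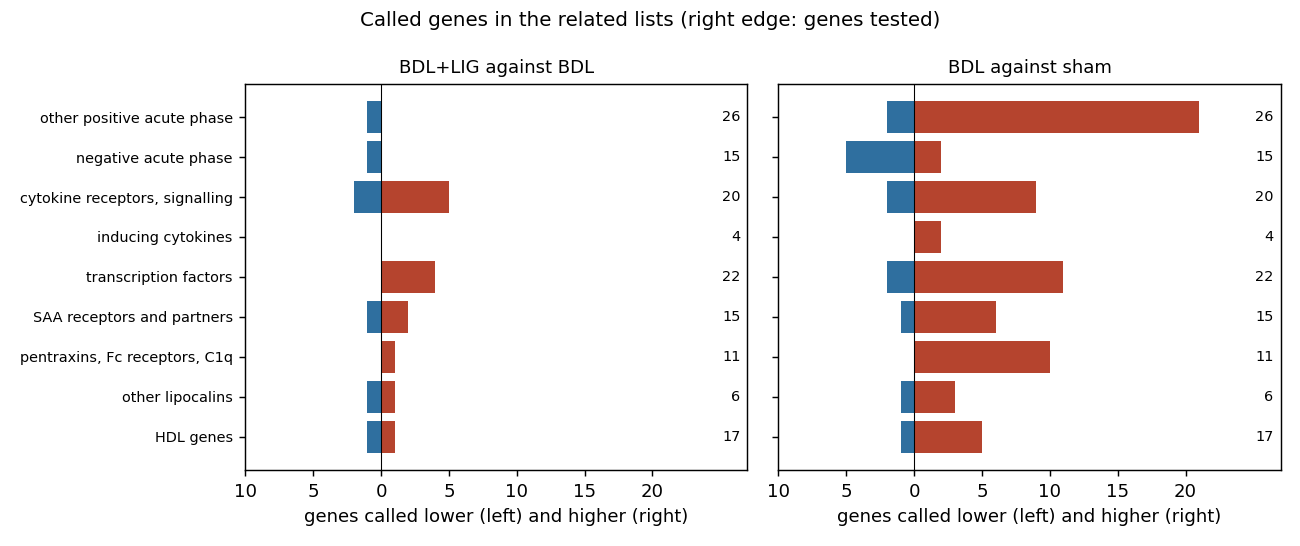
Number of genes called lower (left of 0) and higher (right of 0) in each related list, for BDL+LIG against BDL in the left panel and BDL against sham in the right panel, with the number tested at the right edge. Of the 26 other positive acute phase genes, 0 rose and 1 fell in BDL+LIG against BDL, and 21 rose and 2 fell in BDL against sham.

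Flanking genes were looked at for comparison. The 3 nearest tested protein-coding genes on each side of the Saa cluster, of Apcs and of the Orm cluster are 18 genes, a set chosen after the values of the 8 genes were known. Of these, 7 rose and 1 fell in BDL against sham, with a median difference of 0.20. In BDL+LIG against BDL, 1 rose and 0 fell, and their differences ran from -0.50 to 0.74. Among all tested genes, 22.9% were called higher in BDL against sham. With LIG against BDL, 1012 of 10142 were called higher and 1.79% lower. The counts of the 18 genes were not tested against these shares. Next to the Saa genes, Ldha, which encodes lactate dehydrogenase, averaged 130 ± 5 FPKM in BDL+LIG, 118 ± 5 in BDL and 106 ± 9 in sham livers. Saal1, named for its likeness to serum amyloid A, averaged 1.30 ± 0.12 FPKM in BDL+LIG, 1.17 ± 0.14 in BDL and 0.890 ± 0.177 in sham livers. Next to the Orm genes, Ambp averaged 2692 ± 209 FPKM in BDL+LIG, 3703 ± 108 in BDL and 2427 ± 219 in sham livers, and its difference in BDL+LIG against BDL was -0.46 ± 0.16 (adjusted p = 0.0760 in limma). Tagln2, an actin-binding protein gene near Apcs, rose most of the 18 in BDL against sham (3.17 ± 0.20, adjusted p = 3.63e-06).

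**Figure D5:**
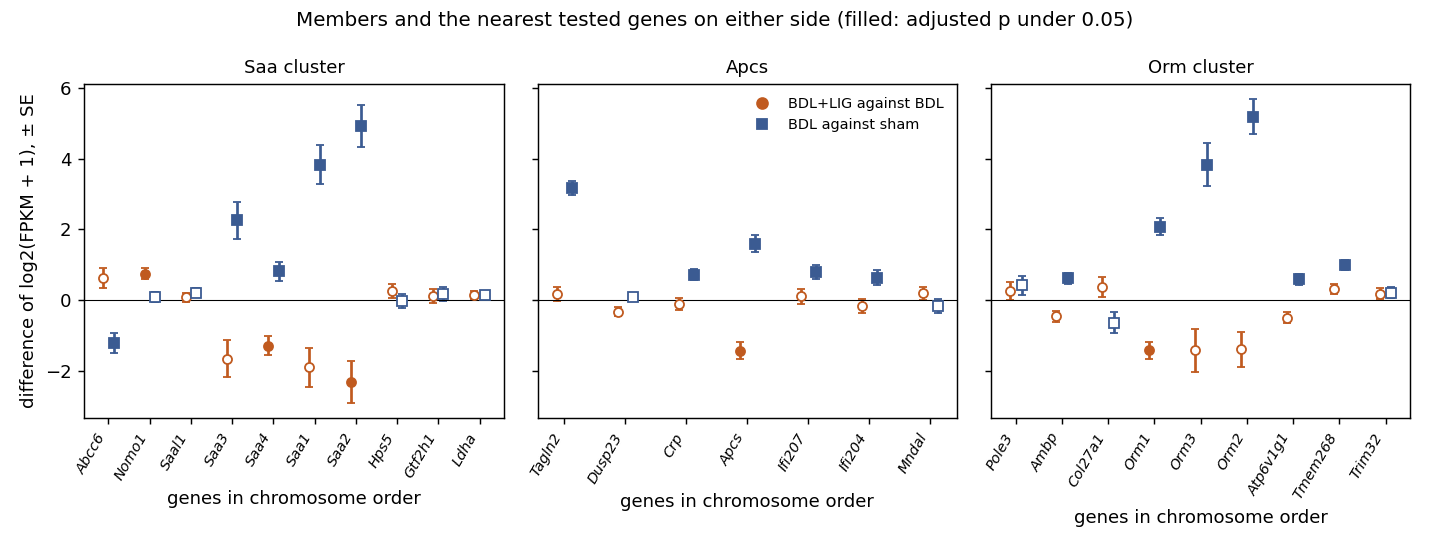
Differences of log2(FPKM + 1) with SE for the members and the nearest tested genes in chromosome order, with BDL+LIG against BDL as circles and BDL against sham as squares. Filled points have an adjusted p under 0.05. The circles of the 18 neighbours lie between -0.50 and 0.74, and those of the 8 genes at -1.29 or lower.

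Gene length moved with the difference between BDL+LIG and BDL livers. Among the 3588 tested genes with implied lengths from 531 to 2492 bases, the range of the 8 genes, the median difference of BDL+LIG against BDL was -0.01, against 0.18 over all tested genes, and 3.76% were called lower. With the trend in gene length removed, limma called 3 of the 8 genes lower in BDL+LIG against BDL. The mitochondrial share of summed FPKM was 5.86%, 8.58% and 7.20% in BDL+LIG, 9.76%, 9.20% and 8.30% in BDL, and 12.6%, 10.6% and 16.8% in sham libraries, and the part of RNA quality in the results was not tested.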

How the data were processed

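Liver RNA was isolated with TRIzol, and libraries came from the VAHTS Universal V6 kit, per the labels' protocols. The submitters' processing notes name fastp, HISAT2 2.1.0, DESeq2 and the build GRCm39. For annotation and read counting no tool or version is named in the sources used here. The authors deposited 1 table of FPKM for 21470 genes and 9 libraries, and groups and library numbers come from the sample titles.

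Whole fragments were recovered from the steps between low FPKM values for 19449 of 19449 genes above 0 in at least 2 libraries (within 0.02 fragments), and they were used for depth and for an alternative fit with voom. The main test was limma 3.58.1 in R 4.3.3 (lmFit, eBayes with trend). It was fitted to log2(FPKM + 1) of the 3 groups together. A pseudocount of 1 understates the change of low genes. The filter kept 10142 genes that reached 1 FPKM in 3 or more libraries. Benjamini-Hochberg adjustment ran over all of them in each comparison, with 0.05 as the threshold. An exact two-sided permutation test of 3 against 3 cannot go below 0.1. The fitting script was tested on simulated data.

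The members, lists and comparisons were chosen with earlier results of these data known. From each list the text names up to 4 genes with the smallest p in BDL against sham and up to 2 called genes in BDL+LIG against BDL, with the 3 genes of nearest course for each member, and gene models without a standard name left out. A gene that this rule names is not reported here. Alternatives covered the pseudocount, the filter, scaling, moderation, samples in the fit, a replicate block and each library left out. 3 more were added after seeing the data, namely voom on recovered fragments, weights per group and removal of the trend in gene length. Promoters, matched by symbol for 7 of the 8 genes (not Orm1), come from RefSeq on GRCm38.p6, an earlier build than that of the table, and transcripts from GENCODE, and both serve for sequence only.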

Additional observations from a re-analysis of the deposited data

How the results depend on the processing

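Over 24 alternatives, the difference of BDL against sham stayed positive and that of BDL+LIG against BDL stayed negative for 8 of 8 genes. Calls for BDL against sham numbered 8 or 7, with Saa4 the call lost in 12 alternatives. Calls for BDL+LIG against BDL, 4 of 8, numbered 2 with no filter on low values, 8 with only the 2 groups compared, 8 with weights per group, and 0 to 8 with each library left out. Calls for BDL+LIG against sham, 5 of 8, numbered 3 with no filter and 3 to 5 with a library left out, the 3 without BDL+LIG library 1 or 3. Against sham in BDL+LIG, Saa3 ran from -0.0783 to 1.06 and Apcs from -0.0322 to 0.44 with a library left out, and Apcs was -0.40 with median-of-ratios scaling. The cause was not tested. Whether library numbers pair the libraries could not be decided. Correlations of deviations between same-numbered libraries ran from -0.126 to 0.285, and differently numbered libraries were not compared. A replicate block gave 7, 5 and 4 calls among the 8 genes for BDL against sham, BDL+LIG against BDL and BDL+LIG against sham, and voom on recovered fragments gave 8, 5 and 5.

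Over the whole table, calls for BDL against sham (3008) numbered 1838 at a mean of at least 5 FPKM, 1902 and 1894 without BDL library 2 or 3 and 4668 without sham library 1. Calls for BDL+LIG against BDL (1194) numbered 623 with no filter, 575 at a mean of at least 5 FPKM, 630 with median-of-ratios scaling, 1926 rescaled to TPM (1828 higher, 98 lower), 1970 with a common total, 3433 with only the 2 groups compared, 742 with the replicate block, 3545 with weights per group and 502 with the length trend removed. They numbered 716, 289 and 322 without BDL+LIG library 1, 2 or 3, 40, 0 and 54 without BDL library 1, 2 or 3 and 3144 without sham library 1. At 0 calls in limma, 2317 genes had an unadjusted p under 0.05. Calls for BDL+LIG against sham (5335) numbered 2765 at a mean of at least 5 FPKM. Depth limits the cytokines, and the 3 libraries per group limit the precision for the 8 genes.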
